A study of Homo sapiens with 8 samples.

Results

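Keratins are the intermediate filament proteins of epithelial cells, and 9 keratin genes were examined here out of 28395 genes in the deposited table: KRT7, KRT8, KRT18, KRT19, KRT17, KRT75, KRT80, KRT81 and KRT86. They were chosen by name, as keratins of simple and stratified epithelium that the table lists, and not by a threshold on a measured value. Earlier results of these data were known when they were chosen. Counts among them set beside shares of all tested genes are therefore a description. KRT10 and KRT15, also keratins of stratified epithelium in the table, were not among the 9 and are given further below. The study sequenced polyadenylated RNA from A-498, a long-established line of human kidney cancer cells, to compare cells edited at ANXA4, the gene of the calcium-dependent membrane-binding protein annexin A4, with controls. It held 8 libraries, 2 replicates of each of 4 lines grown for 24 hours without reaching confluence. Control lines 1 and 2 were labelled wild type and carried non-targeting guide RNA 1 or 2. The lines here called KO line 1 and KO line 2 were labelled ANXA4 KO and carried 1 guide RNA each. Every guide RNA was thus present in 1 line, and guide and line cannot be told apart.

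Keratin filaments are built from pairs of a type I (acidic) and a type II (basic) chain, so that neither chain forms a filament alone. KRT8 (type II) and KRT18 (type I) are the founding pair of simple epithelium, including kidney tubules, and KRT7 and KRT19 join them in ducts and in many carcinomas. Stratified epithelium and its appendages use other chains: KRT17 in basal, wounded and follicular epithelium, KRT75 in the companion layer of the hair follicle, KRT80 in a wide range of differentiating epithelia, and KRT81 and KRT86 in the hair cortex.

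Library depth, as reads counted over all genes of the table, was 15784890 to 22631588. Mitochondrial genes took 4.67% to 6.43% of these reads in 6 libraries. Their share was 9.05% in control line 2 replicate 2 and 13.8% in KO line 2 replicate 2. ANXA4 checks the labels: its normalized counts were 2821 to 6773 in the 4 control libraries, 234.4 and 235.6 in KO line 1, and 3433 and 4142 in KO line 2, so RNA of the targeted gene was low in the line labelled KO 1 and within the control range in the line labelled KO 2. Every direction below refers to these labels, and protein was not measured here. All 7 markers fixed for kidney tubule and clear cell kidney cancer passed the filter on low values, and their summed normalized count was 5292 to 8588 in control and 4871 to 7632 under the KO label. PAX8 and CDH6 made up most of that sum. PAX8 ran from 2987 to 4054 in control and from 3160 to 4476 under the KO label, and CDH6 from 1706 to 4173 and from 1040 to 2324. The other markers of the set were far lower. CA9 ran from 12.9 to 23.9 in control and from 2.07 to 24.8 under the KO label, with at most 26 reads. CDH16 ran from 29.4 to 43.9 and from 36.3 to 131. Of the 6 markers of squamous epithelium, KRT5, KRT14, DSG3 and CALML3 were at or under 3 reads in every library. The squamous marker sum was 1732 to 2536 in control and 2310 to 2791 in KO-labelled libraries, nearly all of it SFN. Of the 6 further markers of simple epithelium, only CLDN4 and MUC1 passed the filter, ESRP1 was at or under 3 reads, and the sum was 409 to 1389 in control and 896 to 1634 in KO-labelled libraries. Of the 6 fibroblast markers, only COL1A1 passed, and their sum was 553 to 1417 in control and 181 to 520 in KO-labelled libraries. The sums of the 4 endothelial and the 5 blood markers stayed at or under 14.5 in every library. The part of these marker levels and mitochondrial shares in the keratin results was not tested.

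Per length of transcript, KRT8 and KRT18 made up most of the keratin RNA of the 9 genes. The median level was 11911 normalized counts per kb for KRT8 and 6781 for KRT18. KRT80 followed at 422 per kb, KRT19 at 157, KRT7 at 57.4, KRT75 at 16.9, KRT81 at 5.56, KRT86 at 2.2 and KRT17 at 0.676. KRT8 held 59.7% to 66.9% of the summed per-kb level of the 9 genes across libraries, and KRT18 held 29.1% to 38.0%. Shares of all reads counted for genes were also taken, with 95% exact Clopper-Pearson intervals. Together the 9 genes ran from 0.140% (0.138% to 0.141%) to 0.179% (0.177% to 0.181%) in the control libraries. In the KO-labelled libraries the share ran from 0.212% (0.210% to 0.215%) to 0.272% (0.269% to 0.274%). These intervals cover counting error only, since the reads carried no molecular identifiers.

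**Figure D1:**
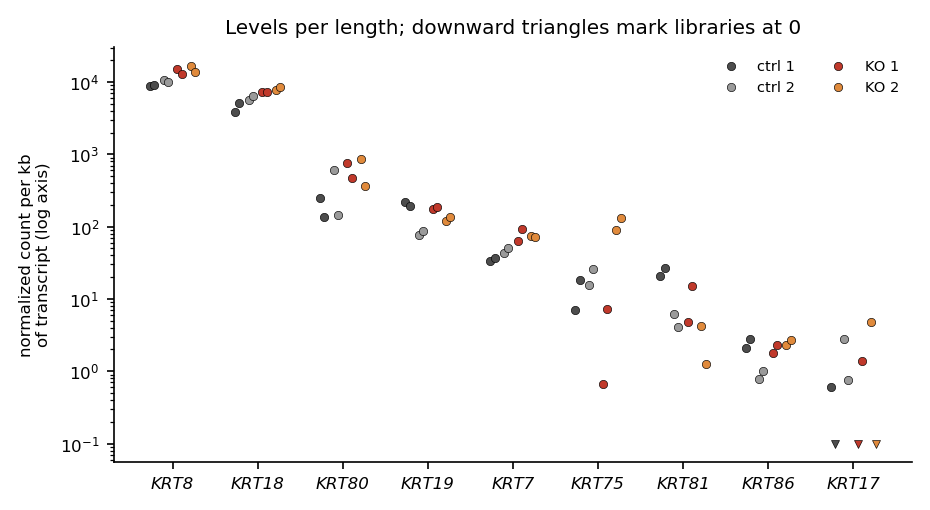
Level of each of the 9 keratin genes per kb of transcript (vertical, log axis, normalized count per kb) in each of the 8 libraries, coloured by line, with genes ordered by median. The lowest value of KRT8 and KRT18 in any library is 3862 per kb, and KRT17 is at 0 in 3 libraries.

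KRT8, the main type II chain of simple epithelium, was higher in every KO-labelled library than in any control library. Its normalized counts were 16747 and 17151 in control line 1, 20381 and 18992 in control line 2, 28150 and 24452 in KO line 1, and 31461 and 25706 in KO line 2 (replicates 1 and 2 in each case). The mean was 18318 ± 1687 (SD, n = 4) in control and 27442 ± 3088 (SD, n = 4) in KO-labelled libraries, a ratio of 1.5. In bulk RNA, a smaller share of expressing cells and less RNA per cell cannot be told apart.

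KRT18, the type I partner of KRT8, had normalized counts of 6032 and 8110 in control line 1, 8683 and 9955 in control line 2, 11355 and 11228 in KO line 1, and 12207 and 13291 in KO line 2. The arms again did not overlap, with means of 8195 ± 1635 (SD, n = 4) and 12020 ± 952 (SD, n = 4) and a ratio of 1.47. All 4 lines were apart from their neighbours in the order control line 1, control line 2, KO line 1, KO line 2. For KRT8 the order was the same, but the libraries of the 2 KO-labelled lines overlapped.

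KRT7, a type II chain of ducts and glands, was far less abundant but followed the same arms. Its normalized counts were 58.8 and 65.5 in control line 1, 74.9 and 89.5 in control line 2, 112 and 164 in KO line 1, and 131 and 128 in KO line 2. The mean was 72.2 ± 13.3 (SD, n = 4) in control and 134 ± 21.8 (SD, n = 4) in KO-labelled libraries, a ratio of 1.85. The 2 control lines were apart from each other and from the KO-labelled lines, which overlapped.

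KRT19, the smallest type I chain, followed the lines and not the arms. Its normalized counts were 304 and 270 in control line 1, 105 and 120 in control line 2, 247 and 262 in KO line 1, and 165 and 191 in KO line 2. All 4 lines were apart from their neighbours, in the order control line 2, KO line 2, KO line 1, control line 1. The arms therefore overlapped, with means of 200 ± 102 and 216 ± 45.8 (SD, n = 4 each).

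KRT80 was higher in replicate 1 than in replicate 2 of every line. Its normalized counts were 966 and 527 in control line 1, 2389 and 562 in control line 2, 2909 and 1854 in KO line 1, and 3309 and 1430 in KO line 2. Replicate 1 was higher by 1.83, 4.25, 1.57 and 2.31 times in that order. All neighbouring lines overlapped, and so did the arms, at 1111 ± 875 and 2376 ± 880 (SD, n = 4 each). Within a replicate number the arms were apart: replicate 1 was 966 and 2389 against 2909 and 3309, and replicate 2 was 527 and 562 against 1854 and 1430.

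KRT75, a hair follicle keratin, was high in 1 line. Its normalized counts were 16.5 and 42.6 in control line 1, 36.1 and 61.2 in control line 2, 1.57 and 16.6 in KO line 1, and 212 and 308 in KO line 2. Both libraries of KO line 2 were above all others, the remaining lines overlapped with their neighbours, and the lowest library rested on 2 reads. Replicate 2 was higher in 4 of 4 lines.

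KRT81, a hair cortex keratin, was high in control line 1. Its normalized counts were 40.5 and 51.0 there, 12.0 and 7.93 in control line 2, 9.39 and 29 in KO line 1, and 8.27 and 2.41 in KO line 2. Control line 1 was apart from the rest, which overlapped with their neighbours, and the lowest library held 2 reads. The arm means were 27.8 ± 21.1 and 12.3 ± 11.6 (SD, n = 4 each), and the arms overlapped.

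KRT86 and KRT17 were near the floor. KRT86, also of the hair cortex, had 35 reads over all 8 libraries and normalized counts of 1.72 to 6.24 in control and 3.91 to 6.04 in KO-labelled libraries. KRT17 had 16 reads in all, with normalized counts of 0 to 4.30 in control and 0 to 7.24 in KO-labelled libraries. Libraries at 0 allow up to 3 reads each. Neither gene reached a normalized count of 10 in any library, so both were left out of the tests, and differences of either were not detectable at this depth.

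**Figure D2:**
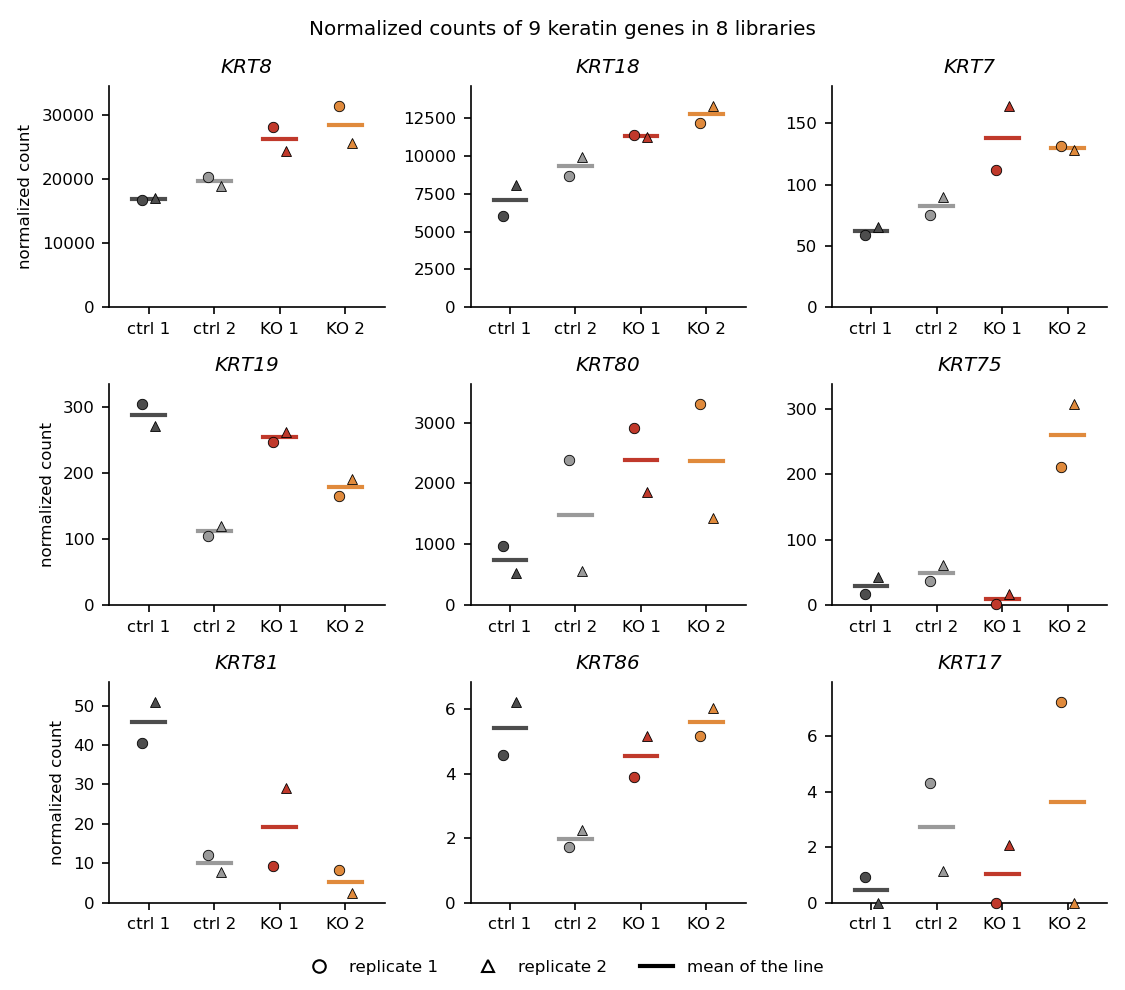
Normalized counts (vertical, linear axes from 0, a scale per gene) of the 9 keratin genes in the 4 lines; circles are replicate 1, triangles replicate 2 and bars the mean of a line. KRT8, KRT18 and KRT7 are higher in all KO-labelled libraries, KRT75 in KO line 2 and KRT81 in control line 1.

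Between all KO-labelled and all control libraries, none of the 7 tested keratin genes passed the test, limma on log2(value + 1) with the libraries of a line allowed to correlate. Over all 14040 tested genes, 0.235% were called at an adjusted p under 0.05 in this comparison. KRT7 differed by 0.88 on the log2 scale (SE 0.24, limma with Benjamini-Hochberg adjusted p = 0.181), KRT8 by 0.58 (SE 0.16, adjusted p = 0.191) and KRT18 by 0.57 (SE 0.19, adjusted p = 0.271). KRT80 differed by 1.30 (SE 0.60, adjusted p = 0.441), KRT19 by 0.24 (adjusted p = 0.869), KRT75 by 0.19 (adjusted p = 0.979) and KRT81 by -1.17 (SE 0.81, adjusted p = 0.65). The size for KRT75 depended on the scale: the ratio of its arm means was 3.44, and on the recovered reads the log2 difference was 1.78 by edgeR and 1.79 by DESeq2 (adjusted p = 0.407 and 0.489). Of the 7, 3 had an unadjusted limma p under 0.05, as did 1615 of the 14040 tested genes. The median difference of the 7 was 0.57 on the log2 scale, against 0.00 over all tested genes.

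The call for the simple epithelial chains depended on the tool and on how the lines entered the model. edgeR on the recovered reads called 0 of 7 keratin genes and 1.32% of all tested genes. The edgeR adjusted p was 0.0588 for KRT7, 0.0539 for KRT8 and 0.111 for KRT18. An unadjusted edgeR p under 0.05 was found for 4 of the 7 and for 2421 of the 14040 tested genes. DESeq2, which like edgeR took the 4 libraries of an arm as independent, called KRT8 (adjusted p = 0.000541), KRT7 (adjusted p = 0.00334) and KRT18 (adjusted p = 0.0231), and 6.05% of all tested genes. A limma fit with a separate mean for each line, whose error was the spread between replicates alone, called KRT7 (adjusted p = 0.0147), KRT8 (adjusted p = 0.0158) and KRT18 (adjusted p = 0.0195), and 10.5% of all tested genes. With the 4 line means as the only data points the adjusted p was 0.600 for KRT7, 0.610 for KRT8 and 0.629 for KRT18. Over all alternative fits the adjusted p ran from 0.00334 to 0.600 for KRT7, from 0.000541 to 0.610 for KRT8 and from 0.0195 to 0.629 for KRT18, and the difference stayed positive in each. With the replicate number as a block, limma called 0 of 7 and 0.264% of all tested genes.

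All 4 KO-labelled libraries lay above all 4 control libraries for 3 of the 7 tested keratin genes, KRT7, KRT8 and KRT18, and below them for 0. Over all tested genes this held for 5.11% (above) and 5.51% (below). Within each replicate number taken separately, both KO-labelled libraries were above both control libraries for 4 of 7, KRT80 being the addition, against 9.54% of all tested genes. In KRT80 the difference was 1.03 on the log2 scale within replicate 1 and 1.58 within replicate 2.

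KRT7 rose in KO line 1 against the 2 control lines, by 0.92 on the log2 scale (SE 0.21, limma with Benjamini-Hochberg adjusted p = 0.0371). It was the 1 call among the 7 tested keratin genes, with 7.01% of all tested genes called and 3.82% called higher. KRT8 differed by 0.52 (SE 0.14, adjusted p = 0.0594), KRT18 by 0.49 (adjusted p = 0.0807), KRT19 by 0.50 (adjusted p = 0.0879), KRT80 by 1.35 (SE 0.56, adjusted p = 0.179), KRT75 by -2.44 (SE 0.70, adjusted p = 0.0704) and KRT81 by -0.34 (adjusted p = 0.749). With the replicate block, 6 of 7 were called where 24.4% of all tested genes were: KRT80 (adjusted p = 0.000823), KRT7 (0.00313), KRT8 (0.00495), KRT18 (0.00666) and KRT19 (0.0226) as higher and KRT75 (0.000826) as lower. On the recovered reads, edgeR called KRT7 and KRT8 (adjusted p = 0.0432 for KRT8) with 7.57% of all tested genes, and DESeq2 called KRT7, KRT8 and KRT18 (0.00664 for KRT8 and 0.0364 for KRT18) with 10.3%. The KRT7 call was lost when any 1 library of the control lines or of KO line 1 was left out, at adjusted p = 0.0579 to 0.303. Other calls were gained: KRT80 without control line 2 replicate 1 (1.87, adjusted p = 0.0293), KRT75 without KO line 1 replicate 2 (-3.83, adjusted p = 0.0253) and KRT8 without either library of KO line 2 (0.0368 and 0.0365).

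KRT8, KRT18, KRT7 and KRT75 rose in KO line 2 against the same 2 control lines, 4 of the 7 tested keratin genes where 11.2% of all tested genes were called and 4.54% called higher. KRT75 rose by 2.81 on the log2 scale (SE 0.70, limma with Benjamini-Hochberg adjusted p = 0.0343), KRT7 by 0.85 (SE 0.21, adjusted p = 0.0328), KRT18 by 0.66 (SE 0.15, adjusted p = 0.0224) and KRT8 by 0.64 (SE 0.14, adjusted p = 0.0214). KRT80 differed by 1.26 (SE 0.56, adjusted p = 0.188), KRT81 by -1.99 (SE 0.55, adjusted p = 0.0502) and KRT19 by -0.02 (adjusted p = 0.964). With the replicate block, which called 27.4% of all tested genes, KRT80 (adjusted p = 0.00099, higher) and KRT81 (adjusted p = 0.012, lower) were called as well. Because the 2 KO-labelled lines were set against the same 4 control libraries, their values stand side by side and are not independent of each other. The error in both contrasts was the spread between replicates of a line, not the spread between lines.

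Single libraries decided several of these calls in KO line 2. The KRT8 call was lost without control line 1 replicate 1 or 2, control line 2 replicate 2 or KO line 2 replicate 1 (adjusted p = 0.0511 to 0.0979). The KRT18 call was lost without replicate 1 of either control line or without either library of KO line 2 (adjusted p = 0.0529 to 0.0928). The KRT7 and KRT75 calls were lost without either library of control line 1, control line 2 replicate 1 or either library of KO line 2, at adjusted p = 0.0748 to 0.111 for KRT7 and 0.0506 to 0.142 for KRT75. All of these differences stayed positive. KRT80 was called higher without control line 2 replicate 1 (1.78, adjusted p = 0.0285), and KRT81 lower without KO line 1 replicate 1 (0.0456) or 2 (0.0492) or KO line 2 replicate 1 (0.0396), or with a pseudocount of 10 (0.0481).

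KRT75 was higher in KO line 2 than in KO line 1 by 5.25 on the log2 scale (SE 0.81, limma with Benjamini-Hochberg adjusted p = 0.00972). It was the 1 of 7 tested keratin genes called between the lines labelled KO, where 6.94% of all tested genes were called and 2.41% called higher. The call held without each of the 8 libraries in turn, at 3.87 to 6.64 on the log2 scale and an adjusted p of at most 0.0494. KRT81 differed by -1.65 (SE 0.63, adjusted p = 0.153) and KRT19 by -0.52 (SE 0.18, adjusted p = 0.119). With the replicate block, KRT19 was called lower in KO line 2 (adjusted p = 0.0368), among 24.5% of all tested genes. KRT7 differed by -0.06, KRT80 by -0.09, KRT8 by 0.12 and KRT18 by 0.17, each below its own SE or close to it.

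KRT19 was lower in control line 2 than in control line 1 by -1.35 on the log2 scale (SE 0.18, limma with Benjamini-Hochberg adjusted p = 0.0102). Between these lines, both wild type by label, it was the 1 call of 7, with 2.13% of all tested genes called and 1.08% called lower. The call was lost without control line 1 replicate 1 (adjusted p = 0.112) or 2 (0.0825) or control line 2 replicate 1 (0.0561). KRT81 differed by -2.10 (SE 0.63, adjusted p = 0.137) and KRT18 by 0.41 (SE 0.17, adjusted p = 0.276), and the replicate block called both (adjusted p = 0.0359 and 0.0497), with 12.5% of all tested genes. KRT80 differed by 0.70, KRT75 by 0.80, KRT7 by 0.39 and KRT8 by 0.22, with adjusted p of 0.521 to 0.763.

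**Figure D3:**
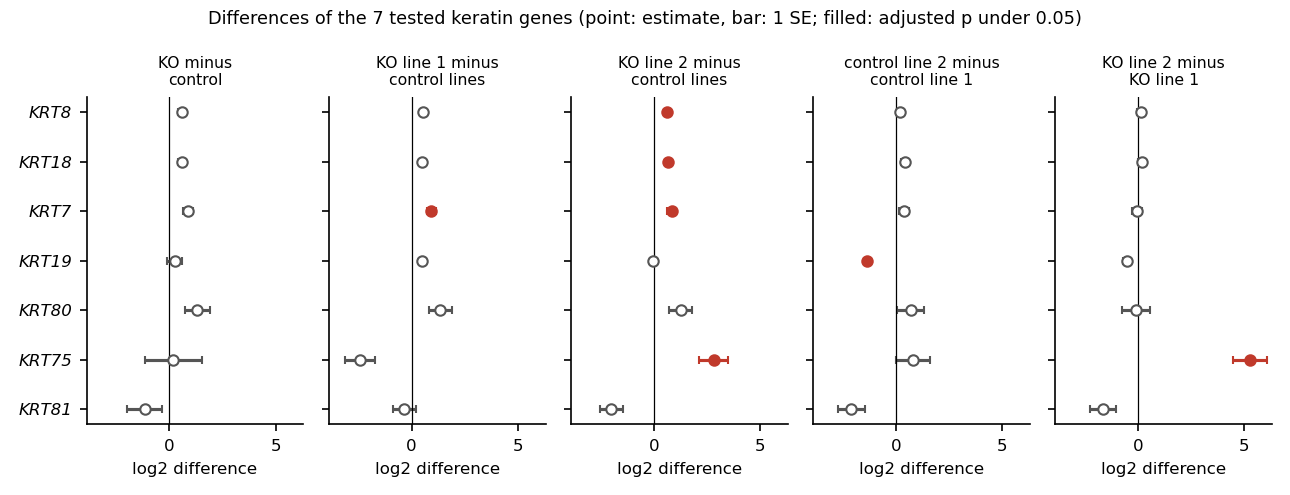
Differences on the log2(value + 1) scale (horizontal) of the 7 tested keratin genes in 5 comparisons; points are limma estimates, bars 1 SE, and filled points have an adjusted p under 0.05. No point is filled for KO minus control, 4 are filled for KO line 2 minus control lines, and the KRT75 difference between the KO-labelled lines is 5.25.

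An F test of any difference among the 4 lines called 6 of the 7 tested keratin genes, against 15.1% of all tested genes. The limma adjusted p was 0.00642 for KRT19, 0.0158 for KRT75, 0.0319 for KRT18, 0.0333 for KRT7, 0.036 for KRT8 and 0.0453 for KRT81. KRT80 was not called (adjusted p = 0.204) unless the replicate number was a block (adjusted p = 0.000482, 43% of all tested genes called) or control line 2 replicate 1 was left out (0.0322). Without the filter on low values the calls for KRT7 (0.0543), KRT8 (0.0766), KRT18 (0.0506) and KRT81 (0.0667) were lost. Scaling to equal totals lost those for KRT8 (0.0559) and KRT81 (0.0546), and a pseudocount of 0.1 that for KRT81 (0.0532). The calls for KRT19 and KRT75 held without each library in turn. Those for KRT7, KRT18, KRT8 and KRT81 were each lost without either library of control line 1, with adjusted p of up to 0.133, 0.145, 0.143 and 0.192. The KRT7 call was also lost without KO line 1 replicate 2 or either library of KO line 2, and the KRT18 call without either library of KO line 1 or KO line 2 replicate 2. The KRT8 call was also lost without either library of control line 2 or of KO line 1, and the KRT81 call without either library of control line 2 or replicate 2 of either KO-labelled line. As a description of spread, the SD of log2(value + 1) over the 8 libraries put KRT75 at the 99.8th percentile of tested genes, KRT81 at the 98.4th and KRT80 at the 96.2nd, and KRT8 at the 57.8th.

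Between replicate 2 and replicate 1, with a mean for each line, KRT80 was lower by -1.20 on the log2 scale (SE 0.17, limma with Benjamini-Hochberg adjusted p = 0.00151) and KRT75 higher by 1.34 (SE 0.31, adjusted p = 0.0137). These were the 2 calls among 7 tested keratin genes, and 17.6% of all tested genes were called in that comparison. What the replicate number stands for is not given in the sources used here. Replicate 1 was above replicate 2 in all 4 lines for 19.3% of all tested genes. The share with replicate 2 above in all 4 lines, as for KRT75, was not computed.

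**Figure D4:**
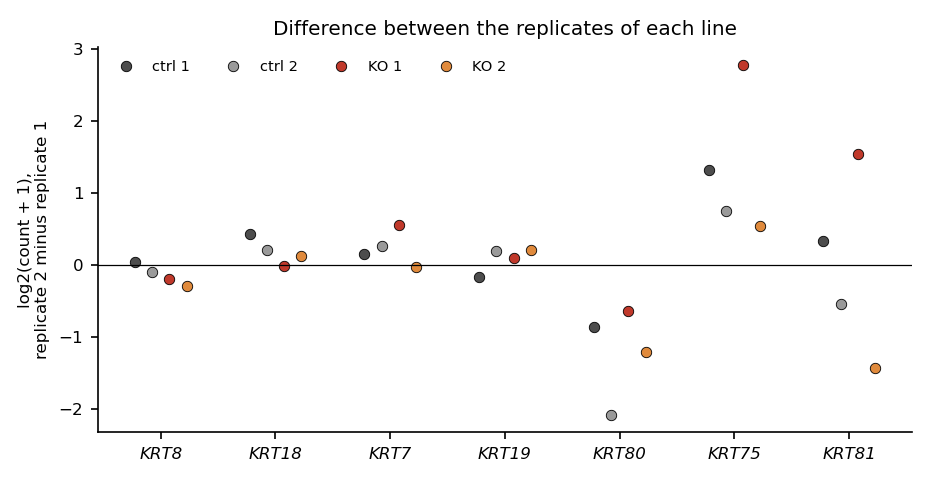
Difference of log2(value + 1) between replicate 2 and replicate 1 (vertical) for the 7 tested keratin genes, with a point for each line. All 4 points of KRT80 lie below 0 and all 4 points of KRT75 above 0, while those of KRT8, KRT18, KRT7, KRT19 and KRT81 lie on both sides.

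The balance of the KRT8 and KRT18 chains did not differ detectably between the arms. The log2 ratio of their normalized counts was 1.18 ± 0.231 (SD, n = 4) in control and 1.19 ± 0.188 (SD, n = 4) in KO-labelled libraries, a difference of 0.00847 (2-sided exact permutation test over 70 arrangements, p = 0.943; the smallest p they allow is 0.0286). That test took the 4 libraries of an arm as exchangeable, although each arm held 2 lines. With the line means, 2 against 2, the exact permutation p was 1, but so few arrangements cannot give a p under 0.05. The ratio itself ran from 1.91 to 2.78. It was higher in replicate 1 than in replicate 2 in each line: 2.78 against 2.1 in control line 1, 2.35 against 1.91 in control line 2, 2.48 against 2.18 in KO line 1, and 2.58 against 1.93 in KO line 2.

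In the genome, all type II members and KRT18 lie on chromosome 12, and KRT19 and KRT17 on chromosome 17 (RefSeq, GRCh38.p14). KRT8 (chr12:52897191-52949860, minus strand) and KRT18 (chr12:52948855-52952906, plus strand) are neighbours, and 525 exonic bases of their annotated transcripts overlap on opposite strands. Whether the counting used strand is not given in the sources used here, so reads in that overlap cannot be assigned with certainty. Pseudogenes add to this: 36.9% of the 50-base windows of the KRT8 transcript and 31.8% of those of KRT18 also occur in transcripts of other keratin genes or pseudogenes, 34 and 43 of them. By symbol, the table's own rows for such copies were KRT8P41, with 0 reads over all libraries, and KRT18P55, with 2. The copies that share the most windows, KRT8P3 with KRT8 and KRT18P11 with KRT18, were not among these rows. The low counts therefore do not show how many reads such copies took.

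KRT81 (chr12:52285913-52291534, minus strand) and KRT86 (chr12:52274645-52309163, plus strand) are near-identical copies, so their counts are uncertain. Their coding sequences are 93.6% identical over 1457 aligned bases, with a longest identical run of 605 bases. Another copy, KRT83, is 93.3% identical to KRT81 and had 0 reads in all libraries. Other pairs of type II members are 60.6% to 74.1% identical. The following stretches show the 60 coding bases in which the copies differ most, since only reads across such places tell them apart; capitals mark the 16 columns where any of them differs. Positions count from the start codon, at 1249 to 1308 in KRT81 and KRT86 and 1264 to 1323 in KRT83.
KRT81: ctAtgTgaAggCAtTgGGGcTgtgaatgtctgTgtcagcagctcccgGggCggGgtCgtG
KRT86: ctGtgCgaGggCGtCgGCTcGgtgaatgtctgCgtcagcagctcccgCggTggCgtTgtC
KRT83: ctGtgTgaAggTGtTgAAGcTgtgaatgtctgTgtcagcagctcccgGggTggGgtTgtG
By contrast, the 60 bases at 223 to 282 of KRT81 and KRT86 (238 to 297 of KRT83) are the same in all copies, and a read there fits each of them.
KRT81, KRT86 and KRT83: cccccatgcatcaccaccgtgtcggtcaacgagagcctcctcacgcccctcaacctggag
Of the 50-base windows of the KRT81 transcript, 38.4% also occur in KRT86. Of the 199 reads in the rows of the 3 genes, 164 were in that of KRT81.

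KRT80 (chr12:52168996-52192014, minus strand), KRT7 (chr12:52233243-52255853, plus strand) and KRT75 (chr12:52424070-52434371, minus strand) share few 50-base windows with other keratin transcripts, 0.416%, 0.411% and 0.044%. On the opposite strand, KRT7 shares 282 exonic bases with KRT7-AS and KRT75 shares 221 with AC055736.1, so reads there cannot be assigned with certainty either. On chromosome 17, KRT19 (chr17:41523617-41528308, minus strand) shares 1.79% and KRT17 (chr17:41619442-41624575, minus strand) 17.4%.

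Few other keratins passed the filter on low values. The table held 55 keratin genes, of which 32 had any read and 10 passed the filter. Of 20 other type II keratins, 17 were at or under 3 reads in every library. Only KRT2, a chain of the upper epidermis, was tested. Its normalized counts were 5.81 ± 3.88 in control and 14.1 ± 5.72 under the KO label (SD, n = 4 each, limma with Benjamini-Hochberg adjusted p = 0.569). No control library reached the filter value of 10 (highest 9.46), so KRT2 entered the tests only through KO-labelled libraries. Of 25 other type I keratins, 19 were at or under 3 reads and 2 were tested. KRT10, best known from the suprabasal epidermis, stood at 1782 ± 264 and 1779 ± 444, and KRT15, of basal epidermis, at 602 ± 76.3 and 564 ± 72.0 (SD, n = 4 each). None of these 3 was called between the arms, where 0.235% of all tested genes were. KRT10 was higher in KO line 2 than in KO line 1 by 0.63 on the log2 scale (limma adjusted p = 0.0318), with 6.94% of all tested genes called. The KRT10 call was lost without any 1 library of control line 1 or of the KO-labelled lines.

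Genes of the proteins that anchor keratins to the cell border mostly passed the filter, and none was called between the arms. Of 20 genes of desmosomes and hemidesmosomes, 14 were tested and 0 were called, where 0.235% of all tested genes were. The median difference was 0.09 on the log2 scale. Calls by line numbered 1 in KO line 1, 1 in KO line 2, 3 between the KO-labelled lines and 2 between the control lines. The shares of all tested genes called were 7.01%, 11.2%, 6.94% and 2.13% in that order. The most abundant were PLEC (plectin, a linker of intermediate filaments), at 23666 ± 4169 normalized counts in control and 28552 ± 8543 in KO-labelled libraries, the desmosomal cadherin DSG2 at 3724 ± 305 and 4052 ± 1090, DST (dystonin) at 2508 ± 320 and 2669 ± 255, and PKP4 (a plakophilin) at 1459 ± 203 and 1552 ± 219 (SD, n = 4 each). By line, JUP (plakoglobin) rose in KO line 1 against the control lines by 1.15 (limma with Benjamini-Hochberg adjusted p = 0.0116). ITGA6, an integrin subunit of the list, fell in KO line 2 against the control lines (log2 difference -1.05, adjusted p = 0.00398). ITGB4, another integrin subunit of the list, was low, at 10.3 ± 5.23 normalized counts in control and 10.3 ± 4.52 under the KO label (SD, n = 4 each). The JUP call was lost without either library of KO line 1 (adjusted p up to 0.112). Between the KO-labelled lines, ITGA6, DSP (desmoplakin) and PLEC were lower in KO line 2, by -1.62, -0.87 and -0.74 (adjusted p = 0.0029, 0.0482 and 0.0478). Both ITGA6 calls held without each library in turn, while those of DSP and PLEC were lost without either library of control line 1 or of KO line 1 or without KO line 2 replicate 2 (up to 0.244 and 0.229). Between the control lines, JUP and EVPL (envoplakin) were higher in control line 2, by 1.14 and 1.03 (adjusted p = 0.0411 and 0.0285); both calls were lost without any 1 library of the control lines, and that of JUP also without either library of KO line 1 (up to 0.277 and 0.208).

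Of 15 other intermediate filament genes, 11 were tested and 0 were called between the arms, where 0.235% of all tested genes were. The median difference was -0.08 on the log2 scale. Calls by line numbered 0 in KO line 1, 1 in KO line 2, 1 between the KO-labelled lines and 1 between the control lines. The shares of all tested genes called were 7.01%, 11.2%, 6.94% and 2.13% in that order. VIM (vimentin, the mesenchymal chain) was the most abundant, at 71304 ± 13442 normalized counts in control and 52593 ± 19760 under the KO label (SD, n = 4 each; log2 difference -0.49, limma with Benjamini-Hochberg adjusted p = 0.603). The nuclear lamins LMNA at 17794 ± 2091 and 17045 ± 2737 and LMNB2 at 6870 ± 692 and 5714 ± 941 followed, then NEFL, a neurofilament chain, at 5000 ± 788 and 6610 ± 2039 (SD, n = 4 each). NEFL rose in KO line 2 against the control lines by 0.73 (adjusted p = 0.0208; lost without control line 1 replicate 2 or KO line 2 replicate 1, at up to 0.103). Between the KO-labelled lines, NEFL was higher in KO line 2 by 0.72 (adjusted p = 0.0494), a call lost without each of the 8 libraries in turn (up to 0.291). NEFM, another neurofilament chain, was lower in control line 2 than in control line 1 by -0.94 (adjusted p = 0.0411), a call lost without any 1 library of the control lines or of KO line 1 (up to 0.244).

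Among 20 transcription factors of epithelium, 11 were tested and limma called 1, ELF3, between the arms, where 0.235% of all tested genes were called. The median difference was 0.34 on the log2 scale. ELF3, an ETS factor of epithelial differentiation, rose from 384 ± 111 to 1446 ± 374 normalized counts (SD, n = 4 each; log2 difference 1.92, SE 0.29, limma with Benjamini-Hochberg adjusted p = 0.0245). The control libraries ran from 262 to 508 and the KO-labelled libraries from 998 to 1816, so the arms did not overlap. Without control line 1 replicate 1 or 2, or KO line 2 replicate 1, the call was lost (adjusted p up to 0.117), as it was with line means alone (0.387). The other abundant members were FOXA2 at 783 ± 87.5 and 539 ± 94.2, TFAP2A at 525 ± 41.6 and 603 ± 129, and KLF5 at 389 ± 187 and 642 ± 143 (SD, n = 4 each), with adjusted p of 0.274, 0.791 and 0.386. DESeq2, which called 6.05% of all tested genes between the arms, called ELF3 and also HNF4A (adjusted p = 8.52e-05), TFAP2C (0.0246) and FOXA2 (0.0278). In limma, HNF4A, a factor of kidney proximal tubule and liver, differed by 2.1 on the log2 scale (adjusted p = 0.178) and TFAP2C by -0.75 (adjusted p = 0.284). In KO line 1 against the control lines, limma called 7.01% of all tested genes. ELF3, KLF5 and KLF4 were called higher, by 1.98, 0.96 and 0.95 on the log2 scale (adjusted p = 0.00247, 0.0359 and 0.0275). FOXA2 and TFAP2C were called lower, by -0.72 and -0.96 (adjusted p = 0.0259 and 0.0312). Apart from that of ELF3, these calls were lost without either library of control line 1 or of KO line 1, and without control line 2 replicate 1 for KLF5 or replicate 2 for the other genes (adjusted p up to 0.288). In KO line 2, where 11.2% of all tested genes were called, ELF3 and HNF4A were called higher, by 1.85 and 3.14. Both calls held without each library in turn. Between the KO-labelled lines, HNF4A was higher in KO line 2 by 2.06 and KLF4 lower by -1.23 (limma adjusted p = 0.0204 each). Of all tested genes, 6.94% were called between these lines. The HNF4A call was lost without KO line 1 replicate 2 or KO line 2 replicate 1 (up to 0.161), and that of KLF4 without either library of KO line 1 or KO line 2 replicate 2 (up to 0.173).

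For each tested keratin gene, the genes with the most similar pattern over the 8 libraries were found by the root mean square difference of centred log2(value + 1), over 11237 genes with a mean normalized count of at least 50. KRT8 was closest to CDK18 (0.0579) and RNPEPL1 (0.0634), KRT18 to PRDX5 (0.0796) and NT5C3A (0.098), and KRT7 to ETHE1 (0.116) and RASGEF1A (0.13). The patterns of KRT8 and KRT18 differed from each other by 0.183, more than either did from those genes. Those genes were picked as the closest of 11237, so the larger value for this pair carries no conclusion. KRT19 was closest to BCL6 (0.19) and ITPR1 (0.205), and KRT80 to CHAC1 (0.362) and IMPA2 (0.39). The distances were larger for KRT81, with FADS2 (0.682) and FOXF1 (0.683) nearest, and for KRT75, with RNASET2 (1.12) and PPP1R14C (1.18) nearest. Distances were not scaled by a gene's own SD over the libraries, which among the tested keratin genes was largest for KRT75 (2.19) and KRT81 (1.32). These distances describe these 8 libraries, which share lines and replicate numbers.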

How the data were processed

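What was measured was polyadenylated RNA of 8 A-498 libraries, and the gene counts were made by the authors. The deposited signal was a read count per gene divided by 1 factor per library, and it is called the normalized count here. The submitters' processing notes name fastp 0.23.2, HISAT2 2.2.1, featureCounts 2.0.1, DESeq2 2.11.40.8 and the builds hg38 and GRCh38, without roles; the annotation and the use of strand are not given in the sources used here. Of all values, 100% were whole multiples of their library's smallest value (relative tolerance 1e-06), which gave back whole reads; 1 normalized count was 0.828 to 1.28 reads. Symbols, spans and strands came from RefSeq for GRCh38.p14 and matched 27745 of 28395 Entrez identifiers; coding sequences and overlaps came from the GENCODE transcripts of GRCh38.

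limma 3.58.1 in R 4.3.3 was run on log2(value + 1), so differences understate the change of low genes. A gene entered the tests if its normalized count reached 10 in 2 or more libraries (14040 did). KO minus control used duplicateCorrelation over lines (0.33). Contrasts of single lines and the F test came from 1 fit to all 8 libraries with a mean for each line. Their error was the spread between the replicates of a line, so the spread between lines of an arm did not enter it. The Benjamini-Hochberg adjustment ran over all tested genes, with calls under 0.05. edgeR 4.0.16 (186 genes called between the arms) and DESeq2 1.42.0 (850) were run on the recovered reads as alternatives, beside other pseudocounts, filters, scalings, summed copies, line means, left-out libraries and, chosen after seeing the data, values within a replicate number. The limma fits were tested on 1 simulated data set per comparison, with 1 common spread for all genes. It held 100 genes changed 2-fold and 100 changed 4-fold, and no further differences between lines or replicate numbers. False calls numbered 23 for KO minus control and 11 for KO line 1 against controls, in both a share above the nominal one. The share of false calls where lines differ, as they do here, was not tested.

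Titles number the replicates. The difference between replicates 2 and 1 correlated across genes at 0.285 to 0.501 in all 6 pairs of lines, above the limit of 0.1, so fits with the number as a block are given where they change a call. The labels do not say that replicates were separate cultures, so p-values measure the spread between these samples, which may be technical. Replicates correlated at 0.978 to 0.987 (log2 values) and were not the same library (chi-square per degree of freedom of 19.4 to 76.0).

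The 9 genes, the lists and the markers were chosen with earlier results of these data known. Named beside the 9 were, per list, up to 4 genes of highest mean and any called between the arms, other list genes called in a comparison of lines (chosen after their values were seen), the 2 most similar genes per keratin, and ANXA4. Amino acid sequences were not used here. One stretch of sequence is not reported here.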

Additional observations from a re-analysis of the deposited data

Results flagged for a closer look

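KRT75 stood out because the 2 lines with the same label differed in it. Its log2 difference between KO line 2 and KO line 1 was 5.25 (SE 0.81, limma with Benjamini-Hochberg adjusted p = 0.00972), with normalized counts of 212 and 308 against 1.57 and 16.6. Set against the same control libraries, the gene was 2.81 higher in KO line 2 and -2.44 in KO line 1, the latter not passing the test (adjusted p = 0.0704). Of 20 groups of 4 libraries examined for a single value far from the others, 0 held one; chance alone gives about 1 in 20.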

How the results depend on the processing

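Of 778 alternative values for the 42 comparisons of single keratin genes, 676 kept direction and side of the threshold. Another 59 lost a call, 30 gained one and 13 changed sign, 0 of them for a called result. Values within a replicate number were judged by direction alone, and those of the F test by the threshold alone. With 1 library left out, limma's KRT75 KO minus control ran from -0.46 (without KO line 2 replicate 2) to 1.36 and was also negative without control line 1 replicate 1 (-0.16) or KO line 2 replicate 1 (-0.098), and within replicate 1 (-0.13). KRT19 in KO line 2 against controls ran from -0.12 to 0.086 (without KO line 2 replicate 1), KRT81 in KO line 1 from -1.11 to 0.42 (without its replicate 1), and KRT80 between control lines from -0.34 (without control line 2 replicate 1) to 1.74. Between the KO-labelled lines, KRT80 ran from -0.70 to 0.51 (without KO line 2 replicate 2), KRT7 from -0.34 to 0.21 (without KO line 1 replicate 2) and KRT8 from -0.029 (without KO line 2 replicate 1) to 0.26. The KRT8 to KRT18 ratio difference ran from -0.0739 to 0.106 with 1 library left out. Of all genes, KO minus control called 71 without the filter, 186 by edgeR, 850 by DESeq2, 1474 with separate line means, 0 with line means alone (1086 at an unadjusted limma p under 0.05) and 7 to 39 with 1 library left out, against 33. The replicate block, in this paired numbering, called 3432 genes in KO line 1, 3851 in KO line 2, 1752 between control lines, 3442 between KO-labelled lines and 6037 among all lines, against 984, 1573, 299, 975 and 2126, and 37 between the arms. Leaving out 1 library gave 148 to 1312, 813 to 1363, 43 to 410, 87 to 1003 and 659 to 2057 in the same order. Between control lines, 183 genes were called without the filter and 655 by DESeq2. Without the filter on low values the KRT7 calls against the controls were lost (adjusted p = 0.0595 and 0.0562), as was the KRT75 call in KO line 2 at a pseudocount of 0.1 (0.0556). Beyond leaving out samples or testing other genes, the cause of these shifts was not tested. Low depth limits KRT17, KRT86, KRT81 and the low KRT75 libraries.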
